A study of Mus musculus with 20 samples.

Results

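The genes of 3 families of phase II conjugating enzymes were followed in livers with and without knockdown of HuR. They were the UDP-glucuronosyltransferases (UGT), the cytosolic sulfotransferases (SULT) and the glutathione S-transferases (GST) of the classes given below. Members were all protein-coding genes whose symbols place them in UGT1A, UGT2A or UGT2B, in any numbered SULT subfamily, or in the GST classes A, K, M, O, P, T or Z, and the rule used no measured value. It took 111 genes of 115942 listed. Of these, 49 were human genes (19 UGT, 13 SULT and 17 GST) among 60607 in humanized mouse livers, and 62 were mouse genes (19 UGT, 21 SULT and 22 GST) among 55335 in WT mouse livers.

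Phase II enzymes attach a polar group to drugs, steroids, bilirubin, bile acids and reactive metabolites, so that the product can leave the hepatocyte in bile or blood. UGT enzymes sit in the endoplasmic reticulum and transfer glucuronic acid from UDP-glucuronic acid, SULT enzymes are cytosolic and transfer sulfate from PAPS, and GST enzymes join glutathione to electrophiles. Hepatocytes are the main site of all 3 reactions in the liver, and nuclear receptors such as CAR and PXR and the factor NRF2 are known to raise the transcription of many of these genes. HuR, encoded by ELAVL1, is an RNA-binding protein that binds U-rich and AU-rich stretches of mRNA, often in the 3′ UTR, and is known to stabilise many of its targets.

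The comparison asked how human and mouse liver genes respond to loss of the same regulator in a living liver. Adenovirus carrying a shRNA against human HuR was given to 4 humanized mice (Humanized HuR KD) and a LacZ control virus to 4 others (Humanized LacZ). Adenovirus carrying a shRNA against mouse HuR was given to 6 WT mice (WT HuR KD) and the control virus to 6 others (WT LacZ). All 20 mice received 2000000000 pfu intravenously, and livers were frozen on day 7 after a fast of 4 h. WT mice were male C57BL/6. The humanized mice were TK-NOG animals, immune-deficient mice that express a viral thymidine kinase under the mouse albumin promoter, so that ganciclovir (25 mg/kg, given at 8 to 9 weeks of age) kills their own hepatocytes. Primary human hepatocytes were transplanted through the spleen 1 week later, and animals whose serum human albumin passed 0.5 mg/ml, measured 8 to 12 weeks after transplantation, were used. These livers still held mouse cells, and the table used here lists their human genes only. The authors state that the hepatocytes came from few donors, and which livers shared a donor is not known here. Host, species of the cells, shRNA and read length differ together between the humanized and WT sets and cannot be told apart. Levels are TPM (transcripts per 1000000: reads on a gene per length of the gene, scaled so that each liver sums to 1000000 over the genes of its table), so genes can be compared within a set, and no level was compared between the sets.

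Sequences show why some members are harder to tell apart than others. The 9 mouse Ugt1a genes lie in 1 cluster on the plus strand of chromosome 1 (GRCm38), where the 3 transcripts shown here each have a first exon of their own and then use the same exons 2 to 5. Ugt1a1 spans chr1:88211959-88218997, and its first exon of 913 bases joins a second exon at 88215044 to 88215175 that all 9 genes use. Around that junction the 3 genes shown here read as follows, 5′ to 3′ on the mRNA strand, with the last 12 bases of the gene's own first exon in lower case and the first 18 of the shared exon in capitals.
Ugt1a1: cccctatcccagGAATTTGAAGCCTATGTC
Ugt1a5: cccctctctcagGAATTTGAAGCCTATGTC
Ugt1a9: tcactttccaagGAATTTGAAGCCTATGTC
All 9 genes have 1311 exon bases in common, which made up 30.4% (Ugt1a6a) to 59.9% (Ugt1a9) of a gene's exon bases. A read from those bases alone fits all 9 genes, and how the authors' counting treated such reads is not given in the sources used here. They were not added in full to every gene, since Ugt1a8 stood at 1.28 to 4.15 TPM in the 12 WT livers in which Ugt1a1 stood at 185 to 331 TPM. Of the 53 other mouse members, 50 share no exon base with another annotated gene on the same strand.

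**Figure D1:**
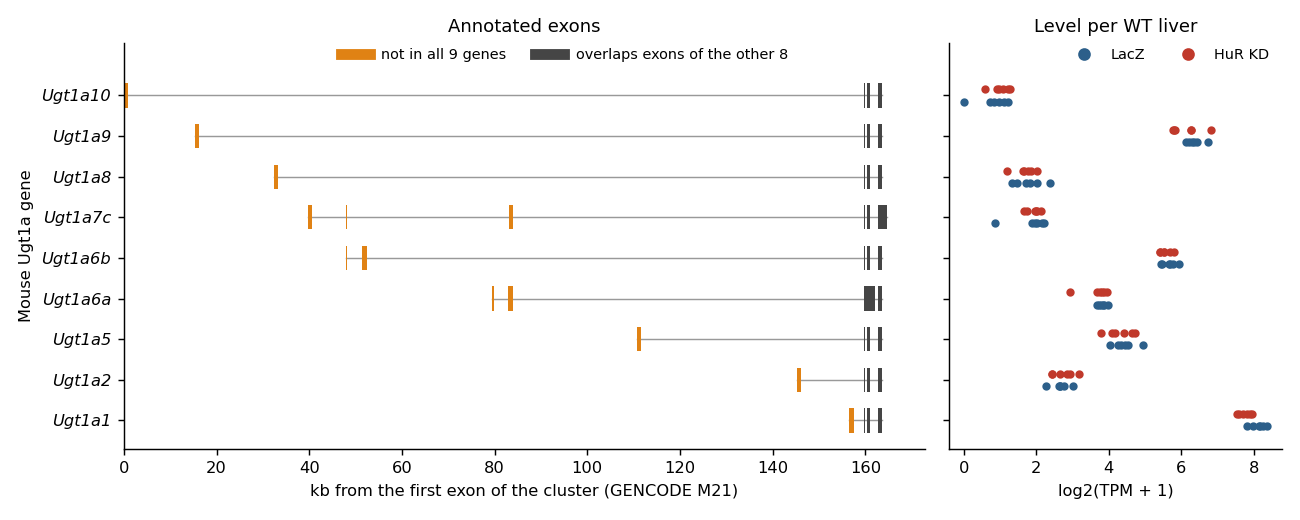
Annotated exons of the 9 mouse Ugt1a genes, drawn to scale in kb from the first exon of the cluster with exons under 0.35 kb widened to that size, and beside them the log2(TPM + 1) of each gene in the 6 WT HuR KD (red) and 6 WT LacZ (blue) livers. Orange exons are not found in all 9 genes, dark grey exons overlap exons of the other 8 at least in part, and Ugt1a1 is the highest of the 9 in every liver, at 185 to 331 TPM.

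The 3′ UTRs of the families differed in a short AU-rich word that lies inside many known HuR sites. ATTTA was searched on the mRNA strand in a single annotated transcript per gene, with overlapping matches counted. Other transcripts of a gene were not examined. The word stood in the annotated 3′ UTR of 16 of 16 tested mouse UGT genes, 6 of 8 SULT genes and 2 of 19 GST genes. Among all 11052 tested protein-coding mouse genes with a 3′ UTR the share was 66.8%, at a median length of 988 bases against 573 for the UGT, 693 for the SULT and 347 for the GST genes, so length differs between these sets as well. All 8 tested Ugt1a genes begin their 3′ UTR with the same 573 bases and hold the same words there. The 7 mouse members that passed the unadjusted test described below and hold the word have it in the following places, shown as 25 bases around its first occurrence with the word in capitals.
Ugt1a1: cattcagcacATTTAaaaataataa
Ugt2b5: cctcattcttATTTAtgaaccacct
Ugt2b36: gaatcctatcATTTAttttaattgt
Sult2a8: cttgtttttgATTTAaggatgtggc
Sult1a1: gatgtgttcaATTTAtttgttgtat
Sult1b1: tggaggcttcATTTAcaatgtaaac
Gstt2: tttaaaaaatATTTAtttatttatt
In Gstt2 the matches overlap as repeats of ATTT, with 4 in 771 bases, while Ugt2b5 has 2 in 253 bases and Sult1b1 has 1 in 1601 bases. A match is a description of the sequence and was not tested as a binding site. Gsta4, Gstm4 and Gstp3, which also passed that test, hold none in the 3′ UTRs that were searched.

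The knockdown was measured in every liver first. Human ELAVL1 (ENSG00000066044.15) stood at 4.05, 2.37, 3.54 and 3.90 TPM in Humanized HuR KD and at 5.76, 4.77, 6.17 and 5.99 TPM in Humanized LacZ, a log2 fold change of -0.59 ± 0.17 (SE, n = 4 and 4, limma adjusted p = 0.214). Mouse Elavl1 (ENSMUSG00000040028.10) had a lowest, median and highest level of 3.72, 4.97 and 5.62 TPM in WT HuR KD and of 8.58, 9.49 and 10.7 TPM in WT LacZ, a log2 fold change of -0.83 ± 0.089 (SE, n = 6 and 6, limma adjusted p = 0.00105). Groups did not overlap in either set.

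Reads recovered from the TPM steps gave a depth of 2670470 to 20302500 reads on human genes per humanized liver and of 1423980 to 44668300 per WT liver. In the humanized set Humanized HuR KD 4 and Humanized LacZ 2 stood apart: they were the deepest, mitochondrial rRNA took 49.1% of the TPM in each against 27.2% to 36.0% in the other 6 livers, and they correlated more closely with each other (Spearman 0.947) than with any liver of their own group. In the WT set WT LacZ 2 was the shallowest and WT HuR KD 6 the next, and their Spearman correlations with the other livers reached at most 0.914 and 0.951, while each of the other 10 reached 0.981 or more with its nearest liver. Where leaving out these livers changed the call of a named member, the value without them is given. The livers carried hepatocyte markers (7 listed genes summed to 49526 to 98213 TPM in the humanized and 6 to 79622 to 99171 TPM in the WT livers). In the humanized livers the human Kupffer cell markers summed to at most 0.519 TPM with CLEC4F, MARCO and VSIG4 at 0 in all 8, and the lymphocyte markers to at most 0.0997 TPM with CD3D, CD3E, NKG7 and PTPRC at 0. Human endothelial markers summed to at most 0.865 TPM. Human stellate cell markers summed to 2.73 to 4.804 TPM in Humanized HuR KD and 5.26 to 7.17 TPM in Humanized LacZ, without overlap, and 1 of 2 tested was lower. Human cholangiocyte markers summed to 5.26 to 29.4 TPM in Humanized HuR KD and 11.5 to 44.4 TPM in Humanized LacZ, and 2 of the 4 tested were lower at an unadjusted p under 0.05. Mouse Kupffer cell markers summed to 117 to 196 TPM in WT HuR KD and 163 to 229 TPM in WT LacZ. At an unadjusted p under 0.05, 3 of 6 were lower, beside 6.94% of all genes tested. In the same livers 1 of 5 endothelial markers was higher and 1 of 5 stellate cell markers lower. Of the tested cholangiocyte and lymphocyte markers, 0 of 2 in each list were called. The part of these cells in the results below was not tested.

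The conjugating enzymes took 0.946% to 1.62% of the protein-coding TPM of the humanized livers. Of 49 human members, 27 reached a mean of 1 TPM and were tested, 22 stayed below it and 7 of these were at 0 in every liver. In limma on log2(TPM + 1), 1 member rose and 3 fell with HuR knockdown at an unadjusted p under 0.05, the threshold of the study's methods. That is 14.8% of the 27, beside 11.5% of all 12738 genes tested (3.6% higher and 7.87% lower), so the share is close to that of all genes. After adjustment limma called 0 members, against 0.212% of all genes, and limma voom on the recovered reads called 0 after adjustment and 7 before, beside 12.3% of all genes. Another scaling moved the split: with median-of-ratios factors 3 members rose and 3 fell, beside 13.1% of all genes called. Among all called genes the share of higher ones went from 31.3% to 47.5%. In bulk tissue, fewer cells of a type and less RNA per cell cannot be told apart. The median log2 fold change of the 27 was -0.18, beside -0.054 over all genes tested.

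**Figure D2:**
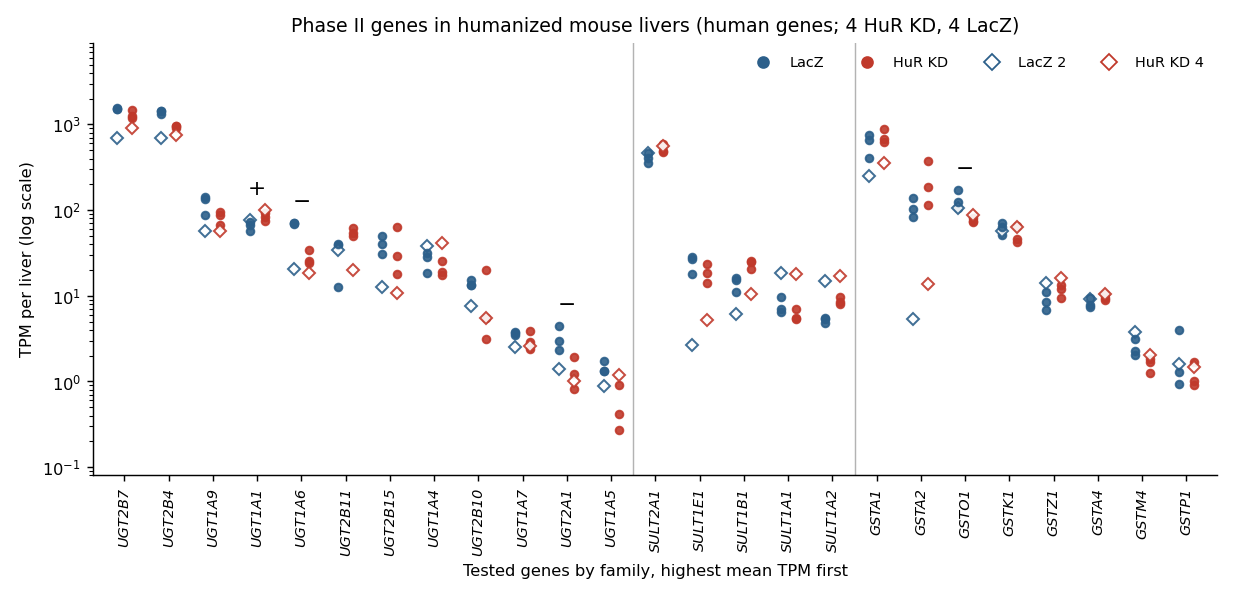
TPM in each of the 8 humanized livers (log scale) for the tested human members whose values are given, by family and in order of mean TPM, with filled circles for Humanized LacZ (blue) and Humanized HuR KD (red) and open diamonds for the livers that stood apart, LacZ 2 and HuR KD 4. A plus or minus marks members past an unadjusted p of 0.05, and the diamonds lie below the circles of both groups for SULT1E1, SULT1B1 and GSTA2, and above them for SULT1A1 and SULT1A2.

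Among the human UGT genes whose values are given, UGT2B7 and UGT2B4 dominated. They glucuronidate steroids, bile acids and drugs such as morphine. Together the pair held 88.2% (median) of the TPM of these UGT genes in Humanized LacZ and 87.2% in Humanized HuR KD. Of all 13 tested UGT genes, 3 passed the unadjusted test. Of the 13, 11 had a lower and 2 a higher mean with knockdown, beside 57.3% lower among all genes. UGT genes with given values summed to 2412 ± 351 TPM in Humanized HuR KD and 2886 ± 838 TPM in Humanized LacZ (SD, n = 4 each). These ranges overlapped.

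UGT1A6 (ENSG00000167165.19), which acts on small planar phenols, fell by 1.01 on the log2 scale (SE 0.39, limma adjusted p = 0.364). Its level was 23.9, 25.7, 34.5 and 18.6 TPM in Humanized HuR KD and 68.6, 20.4, 70.3 and 70.2 TPM in Humanized LacZ. The other 3 control livers thus lay close together, and LacZ 2 lay among the knockdown livers. Without HuR KD 4 and LacZ 2 the log2 fold change was -1.30 (limma adjusted p = 0.0203) and without LacZ 2 alone it was -1.44 (limma adjusted p = 0.0207). Leaving out HuR KD 1, HuR KD 2, HuR KD 4, LacZ 1, LacZ 3 or LacZ 4 took the unadjusted p above 0.05, at -1.02 to -0.86. UGT1A1 (ENSG00000241635.7), the enzyme that glucuronidates bilirubin, was the 1 member that rose. It stood at 74.3, 82.6, 93.8 and 99.3 TPM in Humanized HuR KD and at 57.7, 77.2, 72.6 and 67.4 TPM in Humanized LacZ, a log2 fold change of 0.34 ± 0.15 (SE, limma adjusted p = 0.419). In 3 of 4 knockdown livers the level was above all controls, and leaving out any liver other than HuR KD 1 or LacZ 2 took the unadjusted p above 0.05, at changes of 0.26 to 0.37, as did leaving out HuR KD 4 and LacZ 2 together (0.34). UGT2A1 (ENSG00000173610.12), of a subfamily best known from the olfactory epithelium, stood at 0.818, 1.24, 1.93 and 1.01 TPM with knockdown and at 4.40, 1.39, 2.34 and 2.97 TPM in controls, on 5 to 67 reads a liver. Its log2 fold change of -0.71 ± 0.28 (SE, limma adjusted p = 0.380) lost the unadjusted call when HuR KD 1, HuR KD 2, HuR KD 4, LacZ 1, LacZ 3 or LacZ 4 was left out, at -0.75 to -0.52.

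The abundant UGT genes overlapped between the groups. UGT2B7 stood at 1263, 1182, 1463 and 918 TPM in Humanized HuR KD and at 1506, 692, 1505 and 1537 TPM in Humanized LacZ, a log2 fold change of -0.067 ± 0.28 (SE, limma adjusted p = 0.959) whose sign turned with the scaling. UGT2B4 stood at 968, 911, 953 and 763 TPM with knockdown and at 1450.3, 692, 1321 and 1450.4 TPM in controls, a log2 fold change of -0.40 ± 0.24 (SE, limma adjusted p = 0.588). For both genes LacZ 2 was the lowest liver of all and HuR KD 4 the lowest of its group, and without this pair of livers the log2 fold change of UGT2B4 was -0.57 (limma adjusted p = 0.0660). UGT1A9, which acts on bulky phenols such as propofol, stood at 86.5, 66.2, 94.1 and 57.2 TPM with knockdown and at 135, 56.6, 87.8 and 143 TPM in controls, a log2 fold change of -0.41 ± 0.30 (SE, limma adjusted p = 0.666). Again LacZ 2 and HuR KD 4 were the lowest livers, and the groups overlapped. Without both, UGT1A9 passed the unadjusted test at -0.55 (limma adjusted p = 0.301), and without LacZ 2 alone at -0.67 (limma adjusted p = 0.222).

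Human SULT transcripts came mainly from SULT2A1, which sulfonates DHEA and bile acids, and 0 of 5 tested SULT genes passed limma's unadjusted test. SULT2A1 (ENSG00000105398.4) stood at 472, 489, 592 and 554 TPM in Humanized HuR KD and at 357, 469, 463 and 403 TPM in Humanized LacZ. All 4 knockdown livers were above all 4 controls, at a log2 fold change of 0.32 ± 0.15 (SE, limma adjusted p = 0.445), and the two-sided exact permutation test gave p = 0.0286, the smallest it allows with 4 livers a group. Non-overlapping groups were found for 2 of 27 members (the other is GSTO1, below) and for 7.16% of all genes tested. Median-of-ratios factors took SULT2A1 past the unadjusted threshold at 0.40, and leaving out LacZ 2 did so at 0.37. SULT1B1, which acts on thyroid hormones and small phenols, stood at 24.9, 20.5, 25.6 and 10.6 TPM with knockdown and at 16.3, 6.21, 10.98 and 15.4 TPM in controls. In each group the liver that stood apart was the lowest, and the log2 fold change of 0.70 ± 0.34 (SE, limma adjusted p = 0.484) passed the unadjusted test once these 2 livers were left out (0.71, limma adjusted p = 0.134). SULT1E1, the estrogen sulfotransferase, spanned 5.15 to 23.4 TPM with knockdown and 2.67 to 28.4 TPM in controls, again with HuR KD 4 and LacZ 2 lowest, and its log2 fold change of -0.095 ± 0.68 had no stable sign. Summed SULT levels were 582 ± 57.1 TPM in Humanized HuR KD and 473 ± 46.7 TPM in Humanized LacZ (SD, n = 4 each), with every knockdown liver above 512 TPM, the highest control.

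Among the human GST genes GSTO1 fell and the others did not pass the unadjusted test (1 of 9 tested). GSTO1 (ENSG00000148834.13), an omega class enzyme with glutathione-dependent reductase activity, stood at 72.8, 75.1, 80.7 and 86.8 TPM in Humanized HuR KD and at 107, 105, 170 and 123 TPM in Humanized LacZ. Every knockdown liver was below every control, at a log2 fold change of -0.65 ± 0.17 (SE, limma unadjusted p = 0.00435, adjusted p = 0.180, two-sided exact permutation p = 0.0286). It was the only one of the 4 human members to keep its unadjusted call under all 19 alternatives, at -0.77 to -0.49. The 3 tested class A genes had higher means with knockdown and did not pass. GSTA1, the main GST of human hepatocytes and an enzyme that conjugates busulfan, stood at 875, 673, 628 and 351 TPM with knockdown and at 654, 253, 409 and 754 TPM in controls (log2 fold change 0.34 ± 0.38, limma adjusted p = 0.797). The change was 0.034 without LacZ 2, 0.59 without HuR KD 4 and 0.29 without both. Its neighbour GSTA2 varied widely within both groups, at 374, 186, 115 and 13.7 TPM with knockdown and 103, 5.37, 83.2 and 139 TPM in controls. HuR KD 4 and LacZ 2 were the lowest livers for both. The near-identical GSTA1 and GSTA2 can share reads, so the split between them is uncertain. GSTA4, which clears the lipid aldehyde 4-hydroxynonenal, stood at 10.4, 9.45, 8.84 and 10.4 TPM with knockdown and at 7.34, 9.15, 7.72 and 9.34 TPM in controls (log2 fold change 0.20 ± 0.13, limma adjusted p = 0.621).

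Taking HuR KD 4 and LacZ 2 as a block of their own, chosen after the data were seen, moved more members past the threshold. Under it 5 human members rose (UGT1A1, SULT1B1, SULT2A1, SULT1A2 and GSTA2) and 5 fell (UGT1A6, UGT2A1, UGT2B4, GSTO1 and GSTM4) at an unadjusted p under 0.05, beside 15.1% of all genes, and 0 passed limma's adjustment. Leaving both livers out gave 3 higher and 6 lower of 26 tested, beside 15.7% of all genes. In that fit 2 members passed limma's adjustment, beside 172 of all 12826 genes. GSTM4 and SULT1A2 fall outside the naming rule and are named because these counts hold them. Control livers were themselves spread, with a coefficient of variation over the 4 Humanized LacZ livers from 12.0% (GSTA4) to 70.1% (GSTP1) and a median of 31.6% over 25 members.

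In WT livers the enzymes took 0.961% to 1.27% of the protein-coding TPM. Of 62 mouse members, 43 were tested, 19 stayed below a mean of 1 TPM and 8 of these were at 0 in every liver. HuR knockdown raised 4 and lowered 6 members at an unadjusted p under 0.05. That is 23.3% of the 43, beside 16% of all 15090 genes tested (9.09% higher and 6.94% lower). After adjustment limma called 0 members, against 0.888% of all genes. Limma voom on the recovered reads called 4 higher and 11 lower before adjustment, beside 19.4% of all genes. After adjustment voom called 3 members, beside 639 of all 15077 genes. In 0 of 43 members did the groups fail to overlap, beside 2.49% of all genes. The median log2 fold change of the 43 was -0.10, beside 0.029 over all genes tested.

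**Figure D3:**
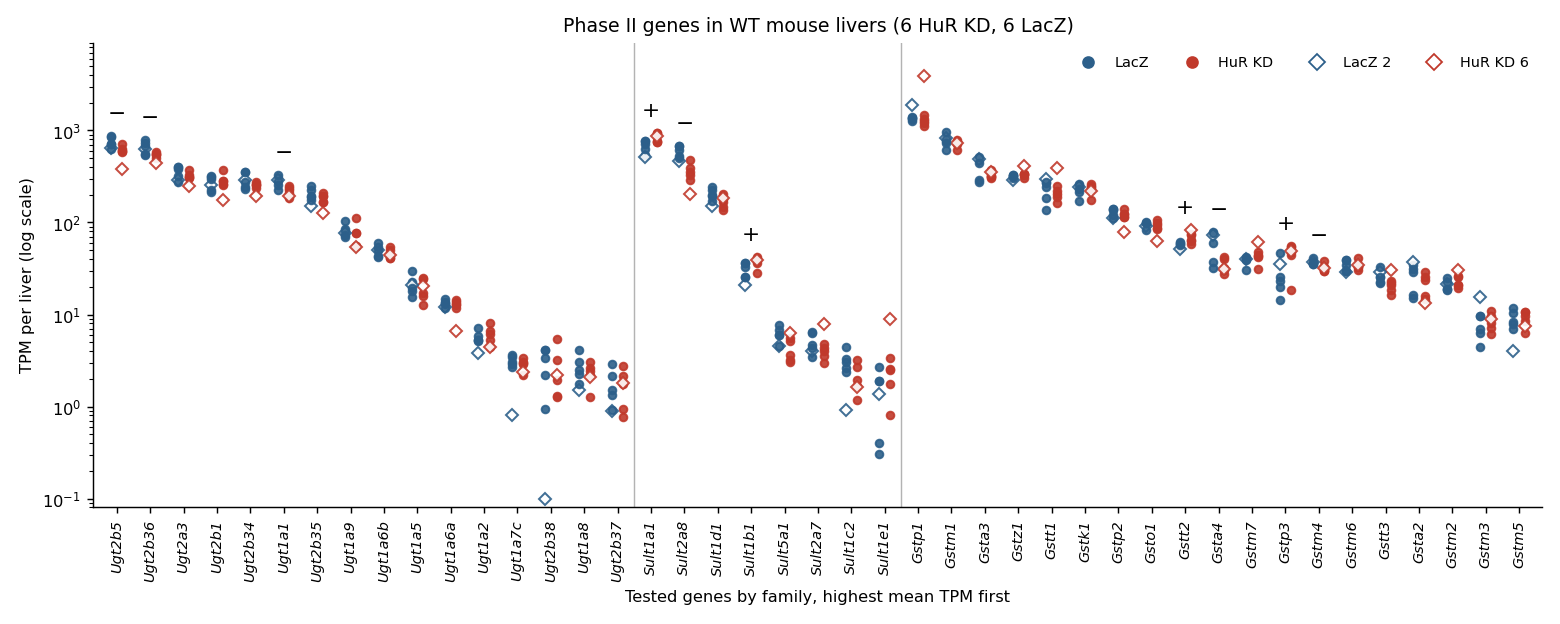
TPM in each of the 12 WT livers (log scale, a value of 0 drawn at 0.1) for the 43 tested mouse members, by family and in order of mean TPM, with filled circles for WT LacZ (blue) and WT HuR KD (red) and open diamonds for LacZ 2 and HuR KD 6. A plus or minus marks the 10 members past an unadjusted p of 0.05, and groups overlap for each of them.

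Mouse UGT transcripts were spread over more genes than those of the human UGT genes whose values are given. Ugt2b5 and Ugt2b36, which glucuronidate steroids and drugs, held 47.0% (median) of UGT TPM in WT LacZ and 44.4% in WT HuR KD. Of 16 tested UGT genes 12 had a lower and 4 a higher mean with knockdown, beside 43.2% lower among all genes, and 3 fell at an unadjusted p under 0.05. Summed UGT levels were 2506 ± 306 TPM in WT HuR KD and 2961 ± 395 TPM in WT LacZ (SD, n = 6 each), with overlapping ranges.

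Ugt1a1 (ENSMUSG00000089960.1), the mouse bilirubin enzyme, had a lowest, median and highest level of 185, 218 and 247 TPM in WT HuR KD and of 226, 284 and 331 TPM in WT LacZ. In 4 of the knockdown livers it was below the lowest control, at a log2 fold change of -0.37 ± 0.10 (SE, n = 6 and 6, limma unadjusted p = 0.00284, adjusted p = 0.0985). The call was kept under all 22 alternatives, at -0.43 to -0.32. The other 7 tested Ugt1a genes had changes between -0.24 and 0.077 and none of them passed. Ugt2b5 (chr5:87124960-87140318) stood at 381, 594 and 713 TPM in WT HuR KD and at 635, 714 and 874 TPM in WT LacZ, a log2 fold change of -0.35 ± 0.14 (SE, limma adjusted p = 0.235). HuR KD 6 was its lowest liver by far, and without it the change was -0.23 with the unadjusted call kept, while leaving out LacZ 1 (-0.31) or LacZ 6 (-0.30) took it above the threshold. Ugt2b36 (chr5:87065927-87092555) stood at 445, 552 and 587 TPM with knockdown and at 538, 651 and 794 TPM in controls, a log2 fold change of -0.28 ± 0.105 (SE, limma adjusted p = 0.212), and kept its unadjusted call under all 22 alternatives. Ugt2a3, also among the abundant UGT genes, stood at 247 to 372 TPM in WT HuR KD and 275 to 403 TPM in WT LacZ, a log2 fold change of -0.14 ± 0.12 (SE, limma adjusted p = 0.628).

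The mouse SULT family moved in both directions. Sult2a8 (ENSMUSG00000030378.15, chr7:14410686-14446769), a liver sulfotransferase of bile acids, showed the smallest p of all members. Its lowest, median and highest level was 206, 343 and 475 TPM in WT HuR KD and 469, 572 and 680 TPM in WT LacZ. In 5 of 6 knockdown livers it was under the lowest control, at a log2 fold change of -0.79 ± 0.18 (SE, n = 6 and 6, limma unadjusted p = 0.000610, adjusted p = 0.0532, two-sided exact permutation p = 0.00433). The unadjusted call held under all 22 alternatives at -0.90 to -0.66, and the adjusted p ranged from 0.0106 to 0.135, with 0.0338 when HuR KD 6 was left out and 0.0203 when LacZ 2 was left out with it. Sult2a7, the other tested Sult2a gene, stood at 2.96 to 7.94 TPM with knockdown and 3.47 to 6.52 TPM in controls, and Sult2a1 to Sult2a6 were below the filter.

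Sult1a1 (chr7:126672865-126676432), the phenol sulfotransferase, was the most abundant mouse SULT and moved the other way. It stood at 743, 821 and 943 TPM in WT HuR KD and at 519, 675 and 760 TPM in WT LacZ, a log2 fold change of 0.36 ± 0.11 (SE, limma adjusted p = 0.153), with 4 of 6 knockdown livers above all controls and the unadjusted call kept under all 22 alternatives. Sult1b1 (chr5:87513339-87538195) stood at 28.1, 39.3 and 42.0 TPM with knockdown and at 20.7, 29.5 and 36.7 TPM in controls, a log2 fold change of 0.35 ± 0.14 (SE, limma adjusted p = 0.258). Its call was less firm: leaving out any one of HuR KD 1, HuR KD 2, HuR KD 4, HuR KD 6, LacZ 2, LacZ 4 or LacZ 5 took it above the threshold, at 0.25 to 0.33, and leaving out HuR KD 6 and LacZ 2 together gave 0.24. Sult1d1, which acts on catecholamines, stood at 136 to 206 TPM in WT HuR KD and 151 to 241 TPM in WT LacZ, and its log2 fold change of -0.21 ± 0.13 (limma adjusted p = 0.470) passed the unadjusted test without LacZ 2 (-0.28). Summed SULT1 levels were 1047 ± 99.2 TPM with knockdown and 886 ± 138 TPM in controls, and summed SULT2 levels 346 ± 90.3 TPM with knockdown and 584 ± 91.6 TPM in controls (SD, n = 6 each).

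Of 19 tested mouse GST genes 2 rose and 2 fell, and each was a modest part of the family. Gsta4 (chr9:78182774-78209349) stood at 27.6, 31.6 and 42.1 TPM in WT HuR KD and at 32.04, 66.5 and 78.6 TPM in WT LacZ, a log2 fold change of -0.73 ± 0.22 (SE, limma adjusted p = 0.134). The controls fell into a high and a low range, with LacZ 4 and LacZ 5 at 32.04 and 36.98 TPM inside the knockdown range and the other 4 at 59.2 to 78.6 TPM. The same 2 livers were the lowest controls for Gsta3, a major GST of mouse liver that detoxifies aflatoxin epoxide, at 292 and 278 TPM against 444 to 518 TPM in the other 4. Gsta3 stood at 302 to 377 TPM with knockdown, and its log2 fold change of -0.29 ± 0.16 (SE, limma adjusted p = 0.402) passed the unadjusted test without LacZ 4 (-0.39) or without LacZ 5 (-0.40). Gstm4 (chr3:108040408-108044894) stood at 29.9, 31.2 and 38.5 TPM in WT HuR KD and at 35.7, 36.6 and 41.6 TPM in WT LacZ, a small log2 fold change of -0.21 ± 0.069 (SE, limma adjusted p = 0.166) with 5 of 6 knockdown livers under the lowest control.

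Gstt2 (chr10:75831114-75837424), a theta class enzyme, stood at 58.6, 69.4 and 82.3 TPM in WT HuR KD and at 51.4, 57.9 and 61.1 TPM in WT LacZ. In 5 of 6 knockdown livers it was above all controls, at a log2 fold change of 0.28 ± 0.083 (SE, limma adjusted p = 0.123) that kept its unadjusted call under all 22 alternatives. Gstp3 (chr19:4057477-4059569) stood at 18.5, 48.0 and 55.8 TPM with knockdown and at 14.3, 24.1 and 47.1 TPM in controls, a log2 fold change of 0.70 ± 0.30 (SE, limma adjusted p = 0.272). HuR KD 3 was the 1 knockdown liver that lay low, and leaving out any liver other than HuR KD 3, LacZ 1 or LacZ 2 took the unadjusted p above 0.05, at 0.54 to 0.70. Gstp1, the most abundant mouse member, stood at 1125, 1327, 1213, 1263, 1462 and 3891 TPM in WT HuR KD and at 1352, 1871, 1394, 1258, 1344 and 1356 TPM in WT LacZ. Its log2 fold change of 0.11 ± 0.26 (SE, limma adjusted p = 0.874) rests on HuR KD 6 and was -0.15 without it. Gstm1, which acts on many electrophiles, stood at 618 to 786 TPM with knockdown and 608 to 970 TPM in controls (log2 fold change -0.11 ± 0.10, limma adjusted p = 0.641). The paralogs Gstp1, Gstp2 and Gstp3, and those of the Gstm, Gsta and Ugt2b clusters, are similar in sequence, so reads could be split between them.

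**Figure D4:**
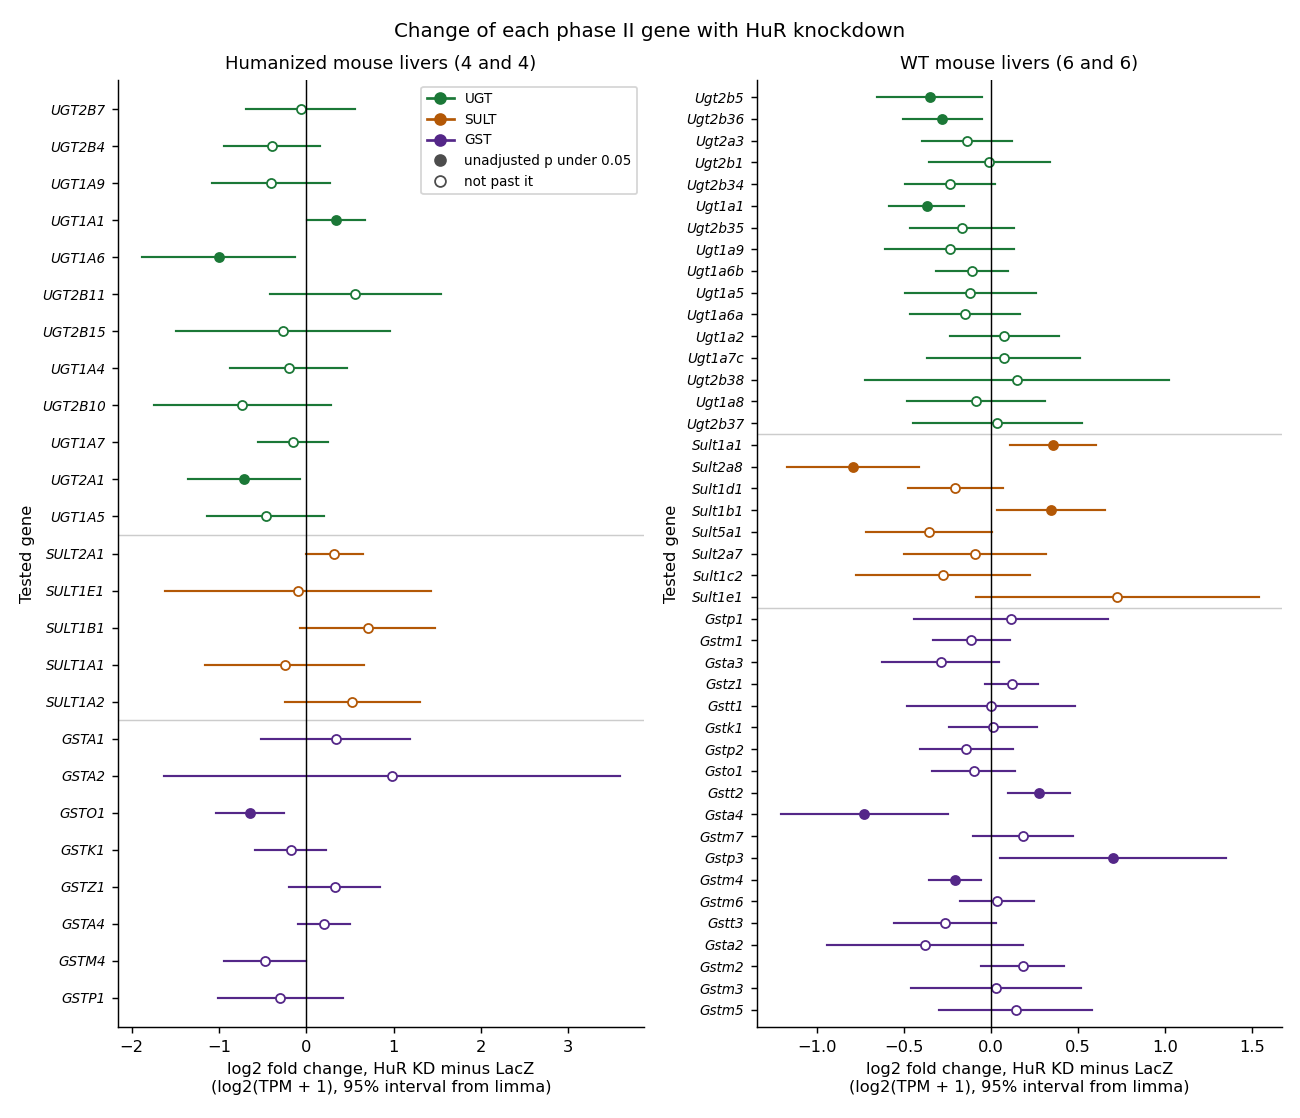
Log2 fold change of each tested member with HuR knockdown, with its 95% interval from limma on log2(TPM + 1), in humanized (left, 4 and 4 livers) and WT (right, 6 and 6 livers) mouse livers, coloured by family. Filled points passed an unadjusted p of 0.05 (4 human and 10 mouse members), and the widest interval is that of GSTA2, at -1.63 to 3.59.

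Control livers of the WT set were less spread than the humanized ones, with a median coefficient of variation of 17.0% over the 43 members in WT LacZ. The steadiest were Gstz1 (4.89%), Gstm4 (5.95%) and Gsto1 (6.69%), and Sult1e1 (65.2%) and Ugt2b38 (69.9%), both under 5 TPM in every control, the least. Leaving out HuR KD 6 and LacZ 2 together gave 3 higher and 10 lower of 44 tested members, beside 23.2% of all genes. In that fit 1 member passed limma's adjustment, beside 762 of all 15082 genes.

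The difference between the sets was tested for 13 pairs of members that share a symbol. It passed an unadjusted p of 0.05 for 3 of the 13, beside 19.8% of all 8123 same-symbol pairs, and after adjustment for 1, beside 5.06%. UGT1A1 was this 1 pair: human UGT1A1 rose by 0.34 and mouse Ugt1a1 fell by 0.37 on the log2 scale, so that the humanized change exceeded the WT change by 0.71 ± 0.17 (SE, joint limma fit, adjusted p = 0.0171). This difference stayed past both thresholds under all 22 alternatives, at 0.63 to 0.81. For GSTA4 the difference was 0.93 ± 0.29 (joint limma fit, adjusted p = 0.0624), from 0.20 in the humanized and -0.73 in the WT livers. For GSTO1 it was -0.54 ± 0.20 (joint limma fit, adjusted p = 0.112), with human GSTO1 lower and mouse Gsto1, at 62.2 to 106 TPM with knockdown and 83.4 to 100 TPM in controls, at -0.10 ± 0.11. The other 10 pairs gave differences from -0.82 (SULT1E1) to 1.36 (GSTA2) with intervals that include 0, which does not show that they responded alike. For SULT1A1 the interval ran from -1.36 to 0.15 and for SULT1B1 from -0.34 to 1.05. A shared symbol is no proof of a 1 to 1 counterpart in the UGT1A and GSTA clusters. How reads in exons shared within the mouse Ugt1a cluster were counted is not known, and human exons were not examined.

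**Figure D5:**
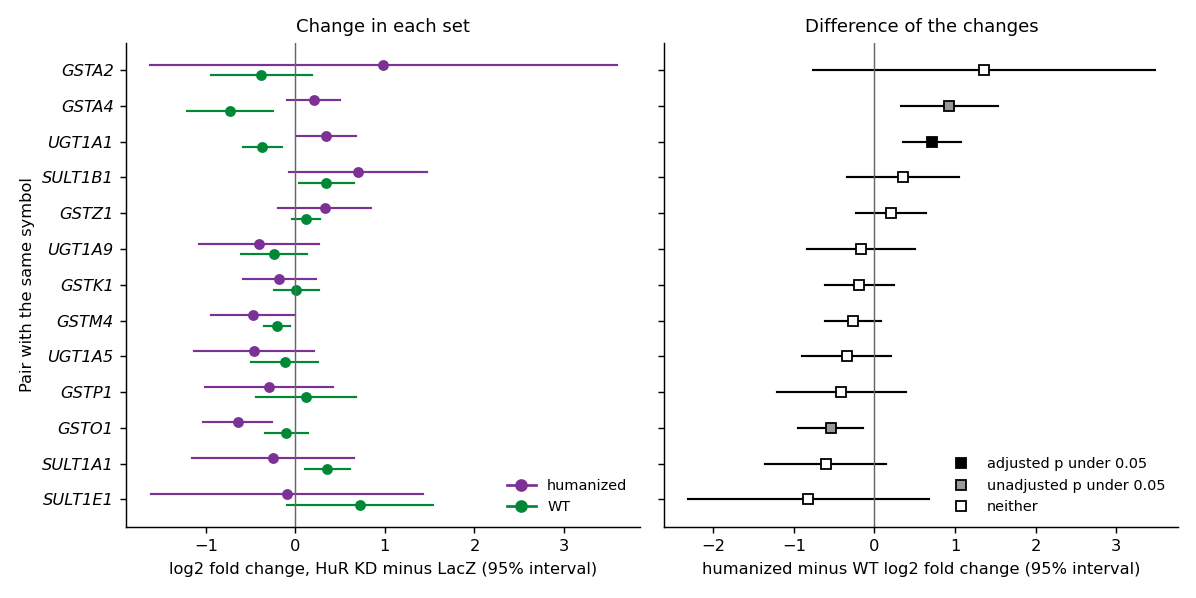
Left, log2 fold change with HuR knockdown of 13 members with the same symbol in humanized (purple) and WT (green) livers, and right, the difference of the 2 changes from the joint fit, all with 95% intervals. Black marks an adjusted p under 0.05 (UGT1A1, interval 0.36 to 1.07) and grey an unadjusted p under 0.05 (GSTA4 and GSTO1).

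Genes that supply, carry or regulate conjugation were read from a list of 50, chosen with earlier results of these data known. The shares given for it describe the list and are no test of it. In humanized livers 5 rose and 10 fell of 45 tested at an unadjusted p under 0.05 (33.3%, beside 11.5% of all genes), and limma called 0 after adjustment. Among those with the smallest p were NR1I3, GCLM and NQO1. NR1I3, which encodes the nuclear receptor CAR, stood at 26.8, 23.5, 27.6 and 26.2 TPM with knockdown and at 14.3, 18.3, 20.04 and 14.1 TPM in controls (log2 fold change 0.62 ± 0.15, limma adjusted p = 0.139). GCLM, the modifier subunit of the enzyme that limits glutathione synthesis, stood at 6.62, 8.30, 7.68 and 9.90 TPM with knockdown and at 10.99, 13.1, 14.5 and 14.6 TPM in controls (log2 fold change -0.65 ± 0.16, limma adjusted p = 0.140). In both genes the groups did not overlap. NQO1, a quinone reductase, stood at 9.93, 8.81, 11.5 and 6.16 TPM with knockdown and at 48.2, 11.5, 64.3 and 42.7 TPM in controls (log2 fold change -1.88 ± 0.46, limma adjusted p = 0.146), and as for UGT1A6 the control that reached down to the knockdown livers was LacZ 2.

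In WT livers 2 of these genes rose and 10 fell of 45 tested at an unadjusted p under 0.05 (26.7%, beside 16% of all genes), and 2 passed limma's adjustment. Ugdh, the enzyme that makes UDP-glucuronic acid for the UGT reaction, stood at 24.4, 28.3 and 30.5 TPM (lowest, median and highest) in WT HuR KD and at 32.1, 36.8 and 40.1 TPM in WT LacZ, with no overlap and a log2 fold change of -0.38 ± 0.072 (SE, limma adjusted p = 0.0376). Nr1i3 stood at 124, 153 and 169 TPM with knockdown and at 161, 247 and 291 TPM in controls, with 4 of 6 knockdown livers under the lowest control (log2 fold change -0.63 ± 0.13, limma adjusted p = 0.0454). By role, 1 rose and 2 fell of 11 tested genes for the supply of UDP-sugar, sulfate and glutathione, 3 of 6 conjugate transporters fell, 4 of 15 other conjugating enzymes fell, and 1 rose and 1 fell of 12 regulators. In the humanized livers the same groups gave 1 higher and 3 lower of 11, 1 lower of 6, 1 higher and 4 lower of 14, and 3 higher of 12. For deconjugation, 2 of 2 tested genes fell in the humanized livers and 0 of 1 was called in the WT livers.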

How the data were processed

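RNA of 20 livers was sequenced as stranded total RNA libraries. The authors trimmed reads, used HISAT2 for alignment (for humanized livers against both genomes joined in 1 index), counted them per gene with featureCounts and deposited 1 TPM table per set. The labels name the builds GRCh38 and mm10. How reads in exons shared by several genes were assigned is not given in the sources used here. Groups came from the labels, and p-values measure the spread between these samples.

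Each table was tested with limma 3.58.1 (R 4.3.3) on log2(TPM + 1) over genes with a mean of at least 1 TPM, two-sided, with empirical Bayes trend. Members were called at an unadjusted p under 0.05, with the Benjamini-Hochberg adjusted p over all genes of the table beside it. A fold change on this scale understates the change of low genes. Same-symbol pairs were tested in 1 joint fit. The members and lists were chosen with earlier results of these data known. Members were named if called, if among the 3 most abundant of a family or if in a called pair, and partner genes if past the adjusted threshold or among the 4 smallest p. A gene that this rule also names is not reported here. Values of human GSTM1, GSTT1, GSTT2B, UGT2B17 and UGT2B28 are not printed, because these genes are commonly deleted in people. Those listed among the human genes were counted as members, and not all of them are listed. They are also left out of the human family shares of TPM and the summed family levels.

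Whole reads were recovered from the TPM steps, to within 0.02 reads, for 18702 human and 25110 mouse genes (100% of those above 0 in at least 4 libraries), and voom was run on them. That alternative, and those that set apart 2 livers of a set, were added after seeing the data. On simulated data with 200 genes shifted by 1.5 (log2), the test recovered 91% in the humanized and 98.5% in the WT design at the unadjusted threshold. After adjustment it recovered 65% and 91%. Simulated livers were drawn independently, and the shift was larger than the change of any called member. The shares thus do not tell how often changes of the size reported here would be found. Exon lengths of GENCODE M21 (GRCm38) matched the lengths behind the mouse TPM within 2% for 24632 of 24645 genes, so mouse coordinates and sequences were read from it.

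Livers with the same replicate number did not deviate together (r from -0.249 to 0.137 in the humanized and from -0.142 to 0.206 in the WT set), so the numbers do not pair livers and no block was used.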

Additional observations from a re-analysis of the deposited data

Results flagged for a closer look

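Of 58 groups of 4 or 6 livers looked at for the named members, 8 values lay far from the rest of their group, where chance alone marks about 1 in 20 groups. In Humanized LacZ 2, UGT1A6 was at 20.4 TPM against 68.6 to 70.3 TPM in the other controls, and UGT2B7 at 692 TPM against 1505 to 1537 TPM. In WT HuR KD 6, Gstp1 was at 3891 TPM against 1125 to 1462 TPM and Ugt2b5 at 381 TPM against 591 to 713 TPM in the other knockdown livers. In WT LacZ 2, Gstp1 was at 1871 TPM against 1258 to 1394 TPM. These 3 livers are among the 4 that stood apart over all genes. In WT HuR KD 3, Gstp3 was at 18.5 TPM against 43.8 to 55.8 TPM and Gstm4 at 38.5 TPM against 29.9 to 32.9 TPM, and in WT LacZ 6, Gstm4 was at 41.6 TPM against 35.7 to 37.5 TPM.

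The change with HuR knockdown differed between the humanized and WT livers for 3 pairs in the joint limma fit. The humanized minus WT difference was 0.71 for UGT1A1 (adjusted p = 0.0171), 0.93 for GSTA4 (adjusted p = 0.0624) and -0.54 for GSTO1 (adjusted p = 0.112), so UGT1A1 alone passed the adjustment.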

How the results depend on the processing

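Over 32 named genes and pairs, 580 of 664 alternative values kept direction and side of the unadjusted threshold, 25 passed it newly, 43 no longer passed it and 16 turned sign. The count of higher human members, 1 in the report, was 3 with median-of-ratios factors, nuclear protein-coding TPM, quantile normalization, voom or without HuR KD 4 and LacZ 2, 5 with these livers as a block, and 0 without the eBayes trend or after adjustment. It ran from 0 to 3 over single livers left out. The count of lower human members, 3, was 5 with that block, 6 without these livers and 0 after adjustment, and ran from 1 to 6 with single livers left out. For mouse members the 4 higher became 0 after adjustment and 2 to 6 with single livers left out, and the 6 lower became 11 with voom, 10 without HuR KD 6 and LacZ 2, 0 after adjustment and 5 to 9 with single livers left out. The 1 pair past adjustment became 2 with median-of-ratios factors and 1 to 3 with single livers left out. Signs turned for 4 members that were not called: UGT2B7 was 0.011 (median-of-ratios), 0.026 (nuclear protein-coding) and 0.056 (quantile), and -0.35 to 0.058 with single livers left out. SULT1E1 was 0.022 (nuclear protein-coding) and 0.12 (voom), and -0.79 to 0.32 with single livers left out. GSTA2 ran from -0.036 to 1.93, and Gstp1 from -0.15 to 0.20 and was -0.074 without HuR KD 6 and LacZ 2. With the replicate number as a block, 1 human member was higher and 2 lower, and 3 mouse members were higher and 5 lower, and UGT2A1, Sult1b1 and Ugt2b5 were no longer called (log2 fold changes -0.71, 0.35 and -0.35). The causes were not tested. The shallowest livers limit low members, such as UGT2A1 on 5 to 67 reads.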
